A study of Rattus norvegicus with 18 samples.

Results

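Fatty acid synthesis, elongation and desaturation in the ventral tegmental area (VTA) of the rat were followed through 10 enzyme genes, Fasn, Acaca, Acly, Scd, Elovl1, Elovl5, Elovl6, Fads1, Fads2 and Me1. The genes were picked by name, with earlier results of these data known. Gene identifiers of the count files were matched to rat symbols. All 10 were found among the 38445 genes of the files, and all 10 passed the filter on low counts that left 17637 genes to test. None of the 10 passed the test across all genes in any comparison. In chronic ethanol 9 of the 10 had a negative log2 change against control, as did 51.3% of all genes tested, and the median over the 10 was -0.117. With the first sequencing index of the libraries as a term, which leaves only ethanol rats 7 and 8 against the controls, that median was -0.07. Rat 8 was among those whose dissected tissue differed, as given below. Fasn was the only gene of the set whose 6 ethanol values all lay below all 6 control values, which held for 0.408% of all genes tested.

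These enzymes form a chain in the cytosol and the endoplasmic reticulum. Citrate leaving the mitochondria is split to acetyl-CoA, acetyl-CoA is carboxylated to malonyl-CoA, and fatty acid synthase joins malonyl units into palmitate with NADPH as the reductant. Elongases then add carbon units and desaturases add double bonds, on saturated chains to give oleate and on dietary essential fatty acids to give arachidonate and docosahexaenoate. Many of these genes are known targets of the transcription factor SREBP-1, and the glia of the brain, above all myelinating oligodendrocytes, are rich users of the pathway.

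The rats were wild-type adult male Sprague Dawley animals, 6 per group, each with 1 library. Controls (rats 1 to 6) were fed a Lieber-DeCarli liquid diet without ethanol, also over 15 or 16 days. The chronic ethanol group (rats 7 to 12) had ethanol at 9% v/v added to this kind of diet over 15 or 16 days and was taken at 0 h of withdrawal, and the withdrawal group (rats 13 to 18) was taken 24 h after this ethanol diet ended. All groups thus shared the liquid feeding, and both ethanol groups are compared with the same 6 controls. Libraries held 29.6 to 45.1 M counts (median 38.4 M), and 3 counts, the most that a gene at 0 allows, equal 0.0666 to 0.101 CPM (counts scaled to library size). That floor covers counting error only.

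The dissected tissue differed between rats of a group. Th and Slc6a3, which define dopamine neurons, were present in all libraries, from 17.6 CPM of Th and 2.56 CPM of Slc6a3 in withdrawal rat 17 to 763 and 788 CPM at the most. Withdrawal rat 13 held 14990.0 CPM of the pineal gene Tph1, against at most 7.44 CPM elsewhere, and the lowest level of the myelin gene Mbp (7941 CPM). Control rat 5 and ethanol rat 8 held 31.4 and 30.7 CPM of the hindbrain gene Hoxb3. Rat 13 was the lowest of all 18 rats for 8 of the 10 genes and the highest for Acly, so results are given with and without it, and without rats 5, 8, 13 and 17 where that matters. As these are pieces of whole tissue, fewer cells of a type and less RNA per cell cannot be told apart.

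Promoter sequences were at hand in a RefSeq table of the GRCr8 assembly for 7 of the 10 genes, Acly, Scd, Elovl1, Elovl5, Fads1, Fads2 and Me1, and not for Fasn, Acaca and Elovl6. In the 250 bases before the start listed there, on both strands, 0 of the 7 held the sterol regulatory element core TCACNCCAC, which 0.974% of 33469 promoters of that length held. The NF-Y box CCAAT, the site of a factor that often works beside SREBP, was found in 3 of the 7 (Acly, Elovl5 and Fads1) and in 34.0% of all promoters. Of 15 promoters of cholesterol synthesis genes, 12 held this box, 13 the GC box, 1 the E-box and 0 the sterol element core. The GC box GGGCGG was in 4 of the 7, among them 5 copies in Me1, against 30.5% of all promoters. The E-box CACGTG was in Elovl5 alone of the 7, against 5.59% of all. Only the windows of Elovl5 and Me1 lay wholly outside the annotated gene. That of Fads1 had 163 bases outside it, that of Fads2 93, and those of Acly, Scd and Elovl1 0. The matches in Acly and Fads2 thus lie inside the annotated gene. No match of 1 motif overlapped a match of another in these genes, and a match is a description of the sequence, not a bound site. Shown here are the upstream bases of Elovl5 and Fads1, an elongase and a desaturase of the polyunsaturated branch that both held the box, and of Scd2, the abundant paralog of Scd described next. They are printed 5′ to 3′ in the direction of the gene, only as far as they lie outside the annotated gene, with the NF-Y box in capitals (ATTGG where it reads on the other strand).
Elovl5 (chr8:87670914-87671163, plus strand): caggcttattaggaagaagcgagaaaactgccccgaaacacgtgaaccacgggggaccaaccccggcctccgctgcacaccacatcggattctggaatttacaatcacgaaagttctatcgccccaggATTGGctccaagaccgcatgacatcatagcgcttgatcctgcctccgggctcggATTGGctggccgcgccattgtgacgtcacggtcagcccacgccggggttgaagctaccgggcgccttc
Fads1 (chr1:216252442-216252604, plus strand): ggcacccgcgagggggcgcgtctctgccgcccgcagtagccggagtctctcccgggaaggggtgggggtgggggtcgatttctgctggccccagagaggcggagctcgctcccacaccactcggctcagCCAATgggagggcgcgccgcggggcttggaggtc
Scd2 (chr1:253118127-253118376, plus strand): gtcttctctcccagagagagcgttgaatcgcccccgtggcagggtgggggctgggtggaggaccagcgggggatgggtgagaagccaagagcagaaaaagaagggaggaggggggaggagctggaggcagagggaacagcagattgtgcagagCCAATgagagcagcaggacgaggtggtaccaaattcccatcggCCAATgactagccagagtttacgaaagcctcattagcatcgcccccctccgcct
Elovl5 held 2 boxes, both on the strand opposite to the gene, at -122 to -118 and -68 to -64 from its start. The box of Fads1 lay at -121 to -117, and those of Scd2 at -97 to -93 and -54 to -50, all on the strand of the gene.

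Levels can be set side by side only per length, as CPM divided by the exon length in kilobases (RPKM), and are given so for the control rats. Acly and Elovl5 were the most abundant of the 10 genes, at 91.3 ± 9.42 and 91.1 ± 7.96 RPKM (SD, n = 6), and their ranges overlapped. Me1 (63.2 ± 2.85), Fads1 (62.3 ± 4.05) and Fasn (53.7 ± 3.96) followed, with Me1 overlapping Fads1 and Fads1 overlapping Fasn. Below them, with no overlap with Fasn, came Elovl1 at 37.9 ± 2.88 RPKM, Fads2 at 22.9 ± 2.74, and then Acaca at 13.4 ± 1.84 and Scd at 12.9 ± 0.809, whose ranges overlapped each other. Elovl6, the elongase that turns palmitate into stearate, stood far below the rest at 1.41 ± 0.186 RPKM, with 67 to 163 counts per library.

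Of the stearoyl-CoA desaturase mRNA counted in this tissue, almost all was from Scd2. Scd, the gene at chromosome 1, 264159966 to 264173061 (minus strand, Rnor_6.0), has Scd2 (264059374 to 264072433) and Scd4 (264094007 to 264105473) as neighbours, both on the plus strand. In control, Scd2 stood at 1484 ± 128 RPKM, which was 115 ± 7.71 times the level of Scd per length (SD, n = 6), and Scd4 at 0.0982 ± 0.0819 RPKM. The ratio of Scd2 to Scd was 128 ± 25.1 in chronic ethanol and 118 ± 10.6 in withdrawal, so the groups overlapped. Read pairs matching several places were left out by the authors, so counts of paralogs that share sequence are uncertain. Scd2 itself was at 7488 ± 647 CPM in control, 7624 ± 184 in chronic ethanol and 7343 ± 1741 in withdrawal, where rat 13 had 4019 CPM and rat 17 had 9167. Its log2 change was 0.03 ± 0.13 (SE) in chronic ethanol against control (edgeR adjusted p = 0.999).

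**Figure D1:**
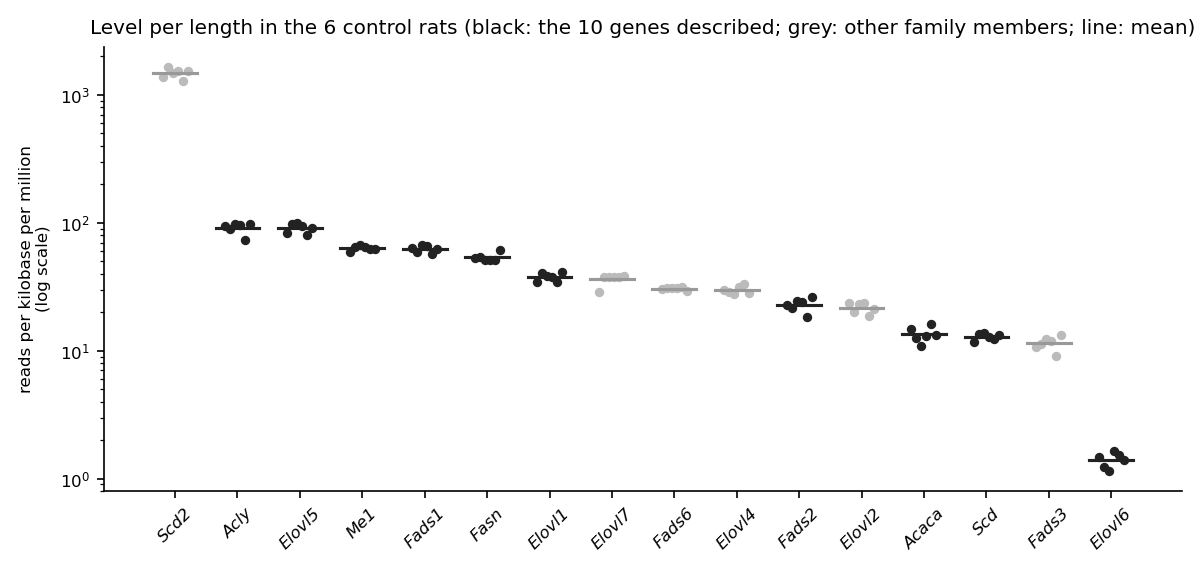
Level per length (RPKM, log scale) of the 10 genes (black) and of other Scd, Elovl and Fads family genes at 1 RPKM or more (grey) in the 6 control rats, with the mean as a line. Scd2 lies above all others at 1484 RPKM, and Elovl6 is the lowest shown at 1.41 RPKM.

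The enzymes that supply substrate and NADPH differed in how they lay between the groups. Acly, ATP citrate lyase, makes cytosolic acetyl-CoA (GeneID 24159, chromosome 10, 88392248 to 88442845, minus strand). Its control values ran from 317 CPM in rat 5 over a median of 410 to 426, its ethanol values from 293 over 366 to 466, and its withdrawal values from 357 over 395 to 593 in rat 13. Ethanol rats 7, 8 and 10, at 293 to 315 CPM, lay below every control, and ethanol rats 9, 11 and 12, at 417 to 466, did not, so the groups overlapped. The log2 change was -0.09 ± 0.14 (SE) in chronic ethanol and 0.09 ± 0.14 in withdrawal against control (edgeR adjusted p = 0.999 and 0.818), and the latter was -0.03 without rat 13.

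Me1, the cytosolic malic enzyme that yields NADPH (GeneID 24552, chromosome 8, 94256830 to 94368834, minus strand), ran from 203 CPM over a median of 217 to 230 in control. In chronic ethanol it ran from 183 over 195 to 229, and in withdrawal from 147 in rat 13 over 212 to 233. Ethanol rats 7, 9, 10, 11 and 12, at 183 to 199 CPM, lay below every control, while ethanol rat 8 at 229 lay among the highest of the controls. The log2 change in chronic ethanol was -0.14 ± 0.09 (SE), with an edgeR adjusted p of 0.946, and 0.368 without rat 13. In withdrawal it was -0.11 ± 0.09 (edgeR adjusted p = 0.646), and -0.03 without rat 13.

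Acaca, acetyl-CoA carboxylase, makes malonyl-CoA (GeneID 60581, chromosome 10, 71519392 to 71719910, plus strand). Its level ran from 75.0 CPM over 89.6 to 111 in control, from 78.1 over 90.1 to 107 in chronic ethanol and from 75.1 over 102 to 115 in withdrawal. The groups overlapped throughout, and withdrawal rat 17 at 115 CPM was the only withdrawal rat above every control. Acaca had the smallest log2 change of the set in chronic ethanol, -0.01 ± 0.11 (SE, edgeR adjusted p = 0.999). In withdrawal it was 0.11 ± 0.11 against control (edgeR adjusted p = 0.731), and 0.17 without rat 13.

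Fasn, fatty acid synthase (GeneID 50671, chromosome 10, 109987735 to 110005901, minus strand), was measured in control rats 1 to 6 at 488, 490, 464, 471, 471 and 562 CPM. Ethanol rats 7 to 12 had 434, 457, 437, 428, 440 and 450 CPM. Withdrawal rats 13 to 18 had 258, 491, 445, 410, 426 and 454 CPM. Every ethanol rat lay below the lowest control, and 5 of 6 withdrawal rats did, with rat 14 within the control range. The gap between the lowest control and the highest ethanol rat was small, 464 against 457 CPM, and the ethanol rats were closer to one another (SD 10.7) than the controls (SD 36.2). The share of the 17637 genes tested with such a gap was 0.408%.

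On the fold scale Fasn was 10.2% lower in chronic ethanol than in control on the means, with a log2 change of -0.15 ± 0.11 (SE, edgeR adjusted p = 0.969). Without rat 13, which belongs to neither group but enters the shared estimate of the spread, that log2 change was -0.15 with an adjusted p of 0.282. Permuting the rats over mean log2 CPM (exact permutation test) gave p = 0.00216, the smallest that 924 splits can give, and 0.233 when adjusted over all genes tested. That p is set by the gap between the groups and adds nothing to it. In withdrawal against control the log2 change was -0.25 ± 0.11 (edgeR adjusted p = 0.483). It was -0.14 without rat 13, with 4 of the 5 remaining withdrawal rats below every control. Between withdrawal and chronic ethanol it was -0.09 ± 0.11 (edgeR adjusted p = 0.692) and 0.01 without rat 13.

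**Figure D2:**
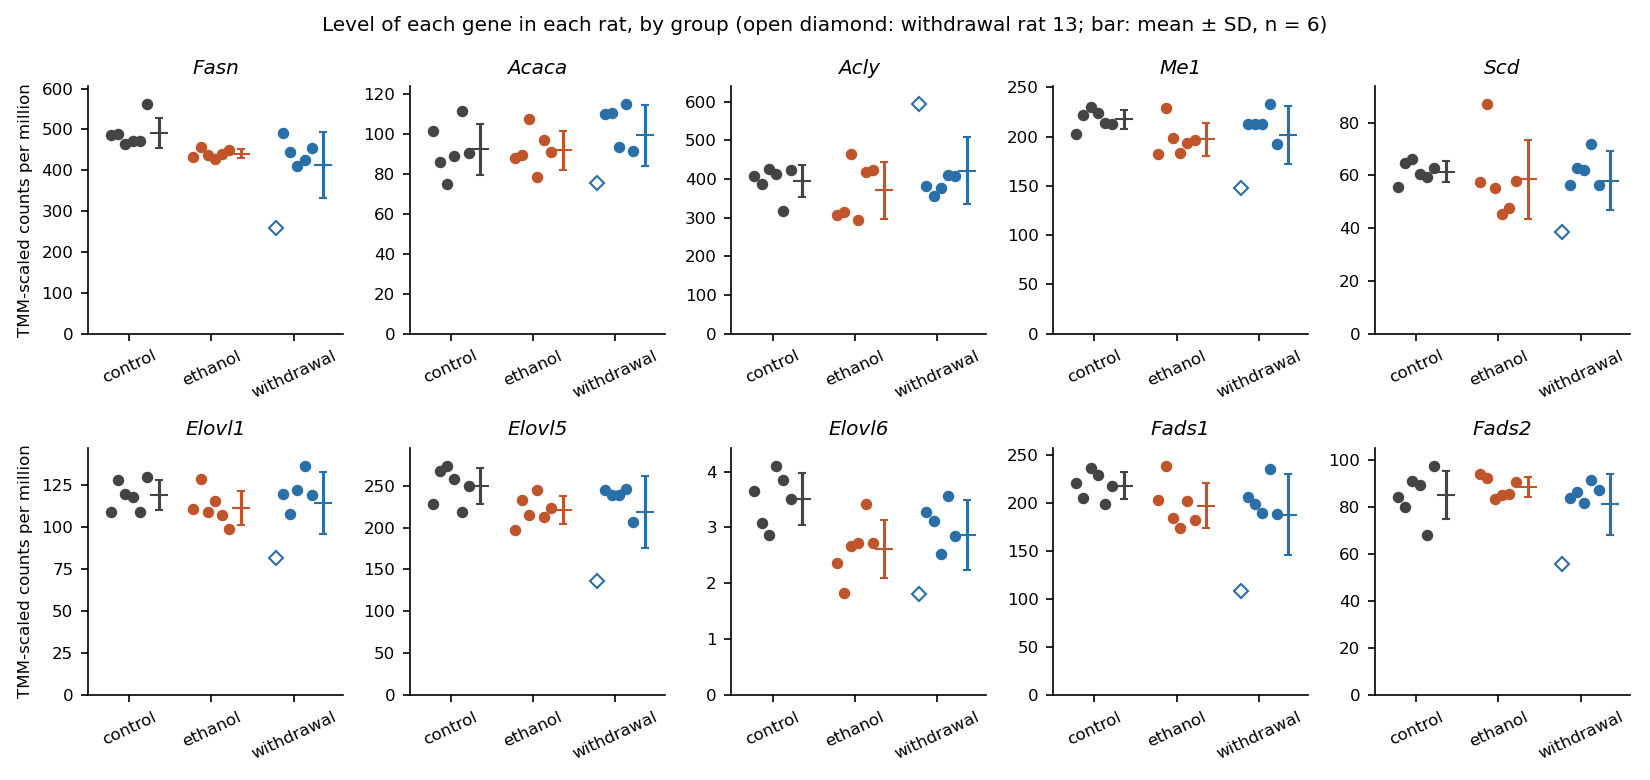
CPM (scaled with TMM factors) of each of the 10 genes in each rat by group, with the mean ± SD (n = 6) beside the points and withdrawal rat 13 as an open diamond. All 6 ethanol rats lie below the controls for Fasn and 5 of 6 for Elovl6 and Me1, and rat 13 lies apart in most panels.

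Of the elongases, Elovl6 (GeneID 171402, chromosome 2, 234187490 to 234296124, minus strand) had the largest difference of the 10 genes. Control rats ran from 2.87 CPM over 3.59 to 4.10, ethanol rats from 1.83 in rat 8 over 2.69 to 3.42 in rat 11, and withdrawal rats from 1.81 in rat 13 over 2.99 to 3.57. In chronic ethanol 5 of 6 rats lay below every control, with rat 11 inside the control range. The log2 change was -0.42 ± 0.17 (SE), a level 25.3% lower on the means, with an edgeR adjusted p of 0.823 and an unadjusted edgeR p of 0.0208. In withdrawal against control it was -0.30 ± 0.17 (edgeR adjusted p = 0.546), and -0.20 without rat 13.

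Elovl5, which lengthens polyunsaturated chains (GeneID 171400, chromosome 8, 85220941 to 85287449, plus strand), ran from 219 CPM over 254 to 274 in control. Its ethanol values ran from 197 over 219 to 245 and its withdrawal values from 136 in rat 13 over 239 to 246. In chronic ethanol 3 of 6 rats lay below every control and 4 of 6 controls above every ethanol rat. The log2 change was -0.17 ± 0.11 (SE) in chronic ethanol (edgeR adjusted p = 0.962) and -0.19 ± 0.11 in withdrawal (edgeR adjusted p = 0.564), the latter -0.09 without rat 13.

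Elovl1, which makes the very long saturated and monounsaturated chains of sphingolipids and myelin (GeneID 679532, chromosome 5, 137255868 to 137260486, plus strand), overlapped in all groups. It ran from 108 CPM over 119 to 130 in control, from 98.5 over 109 to 128 in chronic ethanol and from 81.4 in rat 13 over 119 to 136 in withdrawal. The log2 change was -0.09 ± 0.10 (SE) in chronic ethanol and -0.06 ± 0.10 in withdrawal (edgeR adjusted p = 0.999 and 0.848), and the latter was 0.02 without rat 13.

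Of the desaturases, Scd (GeneID 246074), which makes oleate, ran from 55.5 CPM over 61.7 to 66.1 in control, from 45.5 over 56.4 to 87.0 in chronic ethanol and from 38.7 over 59.4 to 71.7 in withdrawal. Ethanol rat 8 held the highest level of all rats, and the other ethanol rats had at most 57.8 CPM. The log2 change was -0.07 ± 0.14 (SE) in chronic ethanol (edgeR adjusted p = 0.999), and -0.23 without rats 5, 8, 13 and 17 (edgeR adjusted p = 0.233). In withdrawal it was -0.08 ± 0.14 (edgeR adjusted p = 0.852), and 0.01 without rat 13.

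Fads1 and Fads2, the delta-5 and delta-6 desaturases of the polyunsaturated branch, lie near each other on chromosome 1. Fads1 (GeneID 84575) spans 226234034 to 226249118 on the plus strand and Fads2 (GeneID 83512) 225906582 to 226152568 on the minus strand. The annotated span of Fads2 contains Fads3, on the plus strand at 226091774 to 226108332, and counting was by strand. Fads1 ran from 199 CPM over 220 to 237 in control, from 174 over 194 to 239 in chronic ethanol and from 109 in rat 13 over 195 to 235 in withdrawal. In chronic ethanol 3 of 6 rats lay below every control while rat 8, at 239 CPM, lay above every control.

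The log2 change of Fads1 was -0.14 ± 0.13 (SE) in chronic ethanol and -0.22 ± 0.13 in withdrawal (edgeR adjusted p = 0.999 and 0.564), the latter -0.10 without rat 13. Without rats 5, 8, 13 and 17 the change in chronic ethanol was -0.24 (edgeR adjusted p = 0.128), the lowest adjusted p of any of the 10 genes under any setting fitted across all genes. Fads2 was the only one of the 10 with a higher mean in chronic ethanol. It ran from 68.1 CPM in rat 5 over 86.7 to 97.4 in control, from 83.3 over 88.0 to 93.8 in chronic ethanol and from 55.6 in rat 13 over 85.0 to 91.5 in withdrawal. All its ethanol values lay within the control range, and the log2 change was 0.06 ± 0.10 (SE, edgeR adjusted p = 0.999). Per length, Fads1 stood at 2.74 ± 0.232 times Fads2 in control, 2.37 ± 0.229 in chronic ethanol and 2.43 ± 0.232 in withdrawal (SD, n = 6), with overlapping ranges.

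Across the set, edgeR called 0 of the 10 genes at an adjusted p under 0.05 in each comparison, and 0.0% of all 17637 genes tested, also in the test for any difference among the groups. In chronic ethanol against control 1 of the 10 (Elovl6) had an unadjusted edgeR p under 0.05 with a lower level, against 2.74% of all genes. Without rat 13 there were 4 (Fasn, Elovl5, Elovl6 and Me1), against 5.32%, and the lowest adjusted p was 0.282 for Fasn. The same 4 genes had an exact permutation p under 0.05 with a lower level, against 4.94% of all genes. Both counts rest on the same ethanol and control rats. As the genes were chosen with earlier results known, neither count tests the set. Their permutation p values adjusted over all genes were 0.233 or more.

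The median log2 change of the 10 genes in chronic ethanol was -0.117, beside -0.0039 for all genes tested. It was -0.118 without rat 13, -0.189 without rats 5, 8, 13 and 17, -0.18 without ethanol rat 8 alone and -0.09 without control rat 6. With the first index as a term, where only ethanol rats 7 and 8 are set against the controls, it was -0.07. That value thus leans on rat 8, which held the hindbrain gene Hoxb3. The mean log2 CPM over the 10 genes ran from 6.78 to 6.93 in control and from 6.64 to 6.81 in chronic ethanol, so ethanol rat 8 at 6.81 overlapped the controls and the other 5 ethanol rats lay below them.

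In withdrawal against control 8 of the 10 were lower, with a median of -0.096 beside 0.0149 for all genes, of which 46.3% were lower. Without rat 13, 6 were lower and the median was -0.032, without withdrawal rat 17 it was -0.16, and with the first index as a term -0.06. Only Fasn had an unadjusted edgeR p under 0.05 with a lower level (1 of 10), against 3.58% of all genes with rat 13 and 4.2% without it. Fasn was also the only one with an exact permutation p under 0.05 and a lower level, against 4.1%. None of the 10 had all withdrawal values below control, against 0.38% of all genes.

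Between withdrawal and chronic ethanol 5 of the 10 were lower, and the median was 0.011 beside 0.0163 for all genes, of which 46.7% were lower. Without rat 13, 1 of the 10 (Fads2) was lower and the median was 0.085. No member had an unadjusted edgeR p under 0.05, against 15.3% of all genes, and none had all withdrawal values below those of chronic ethanol, against 0.544%.

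**Figure D3:**
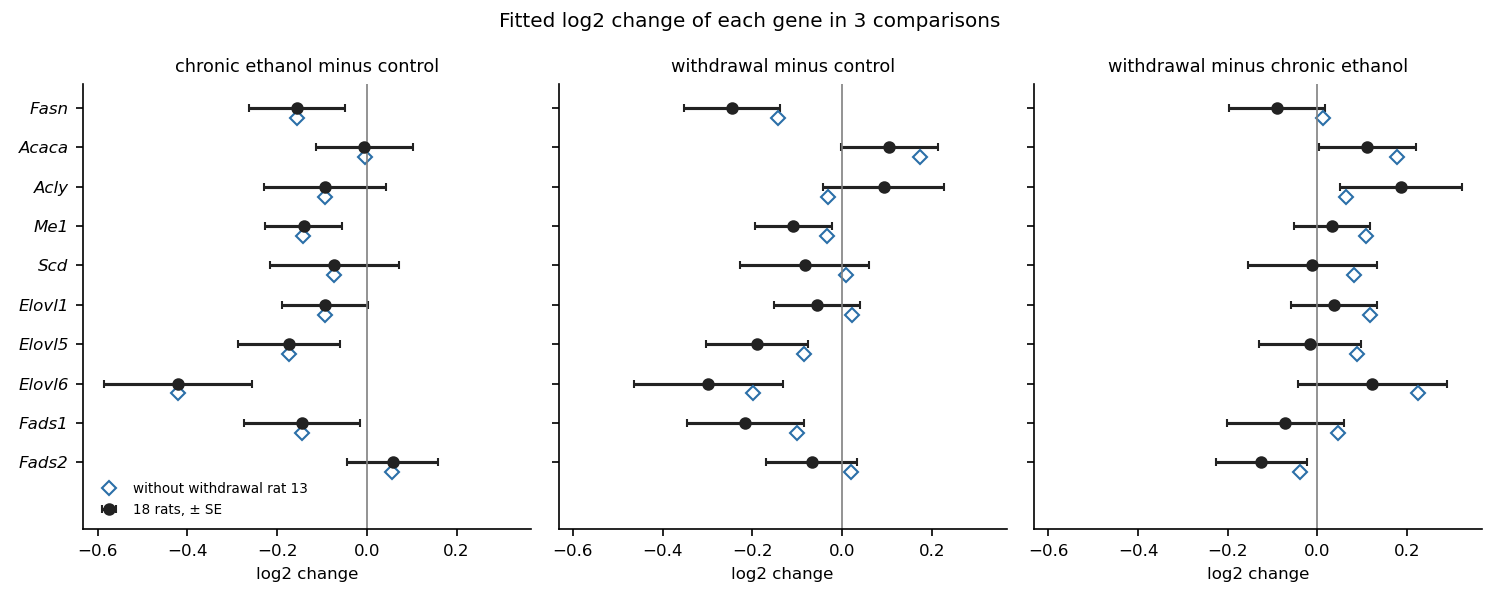
Log2 change of the 10 genes in the 3 comparisons, as fitted by edgeR on 18 rats (black, ± SE) and without withdrawal rat 13 (open diamonds). In chronic ethanol against control 9 of 10 points lie below 0 and are not moved by leaving out rat 13, and in both withdrawal comparisons the diamonds lie apart from the points.

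Libraries shared their first sequencing index in sets that cross the groups in part, rats 1 to 8, 9 to 16, and 17 and 18. Within the first of these, ethanol rats 7 and 8 against the 6 controls, the log2 difference of mean log2 CPM was -0.14 for Fasn, -0.73 for Elovl6, -0.34 for Acly and -0.22 for Elovl5. An exact permutation test gave p = 0.0357 for Elovl6 and Acly, the smallest that 28 splits can give, and 0.179 for Fasn. These p are unadjusted, and the share of all genes reaching 0.0357 in these rats was not computed. For Acly, rats 7 and 8 at 307 and 315 CPM lay just below control rat 5 at 317. In the same 8 rats Scd (0.21), Fads2 (0.14), Fads1 (0.01) and Elovl1 (0.01) were not lower. Within the second, withdrawal rats 13 to 16 against ethanol rats 9 to 12, no gene of the set had an exact permutation p under 0.05, and the smallest that 70 splits can give is 0.0286. Withdrawal and control share no index, so no value within an index can be given there. A fit with the index as a term joins them through the ethanol rats, and includes rats 8 and 13. In it the log2 change in withdrawal against control was -0.27 for Fasn, -0.84 for Elovl6, -0.25 for Acly and 0.33 for Scd (edgeR adjusted p = 0.793, 0.793, 0.822 and 0.793). It was -0.28 for Elovl5, -0.06 for Fads1, -0.06 for Me1, -0.03 for Fads2, 0.004 for Acaca and 0.01 for Elovl1. No such fit was made without rat 8 or rat 13.

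Among rats of a group, several of the 10 genes varied together. With group means removed, 6 of 45 pairs had a permutation p under 0.05 for both Pearson's r and Spearman's rho after adjustment over the 45. They join Scd with Fads1, Fads2 and Me1, Me1 with Elovl5 and Fads1, and Fads1 with Fads2, at r of 0.639 to 0.907. The relation of Fads1 and Me1 was the strongest (r = 0.907, rho = 0.769, permutation p adjusted = 0.015 and 0.0459, 18 rats). It was 0.716 without rat 13 and 0.681 without the rats farthest from the median of Fads1 (13 and 17). Scd and Me1 had r = 0.873 and rho = 0.717 (permutation p adjusted = 0.0103 and 0.0459), and 0.82 without rat 13. Over the 6 pairs r without rat 13 ran from 0.338 (Scd and Fads2) to 0.82. Fasn, Acaca and Acly, consecutive in the pathway, were not among these pairs. Fasn and Acaca had r = 0.553 and rho = 0.34 (permutation p adjusted = 0.13 and 0.364), and r = 0.137 without rat 13.

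Markers of other cells moved with several of these genes. Of 40 relations between the 10 genes and 4 list means (oligodendrocyte, astrocyte, neuron and cholesterol synthesis), the strongest joined Elovl1 to the mean log2 CPM of 13 oligodendrocyte genes. There r was 0.918 and rho 0.831 (permutation p adjusted = 0.0004 and 0.0008, 18 rats, group means removed), with r = 0.853 without rat 13 and 0.8 without rats 13 and 17. Elovl5 followed with r = 0.913 and rho = 0.781 (permutation p adjusted = 0.0151 and 0.0282), r = 0.624 without rat 13 and 0.69 without rats 5 and 13. Elovl5 was also related to the astrocyte mean (r = 0.711, rho = 0.666, permutation p adjusted = 0.0216 and 0.0437), with r = 0.511 without rat 13. Fads1 was related to the cholesterol synthesis mean (r = 0.697, rho = 0.649, permutation p adjusted = 0.0323 and 0.0437), with r = 0.463 without rat 13. These 4 were the relations with an adjusted p under 0.05 by both measures. Acly had negative values with the astrocyte mean (r = -0.691, rho = -0.595, permutation p adjusted = 0.0292 and 0.0743) and the oligodendrocyte mean (r = -0.665, rho = -0.571, permutation p adjusted = 0.0418 and 0.0655). Without rat 13 these r were -0.528 and -0.364.

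In the oligodendrocyte list itself 10 of 13 genes had a negative log2 change in chronic ethanol against control, as did 51.3% of all genes tested. Its median was -0.118 on the log2 scale, beside -0.117 for the 10 enzyme genes. In withdrawal against control its median was -0.036, or 0.108 without rat 13, and against chronic ethanol 0.053, or 0.207 without rat 13. Its summed level ran from 31940 to 43860 CPM in control, from 32070 to 43880 in chronic ethanol and from 17790 in rat 13 to 46660 in withdrawal. Its defining genes Mbp and Mog had at least 7941 and 144 CPM in every rat. With the list mean as a term in the fit, the median of the 10 genes was -0.09 in chronic ethanol and -0.06 in withdrawal against control. The mean log2 CPM of 5 red blood cell genes was 4.60 ± 0.67 in control, 3.24 ± 0.81 in chronic ethanol and 3.35 ± 0.36 in withdrawal (SD, n = 6). What part this has in the values of the 10 genes was not tested.

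**Figure D4:**
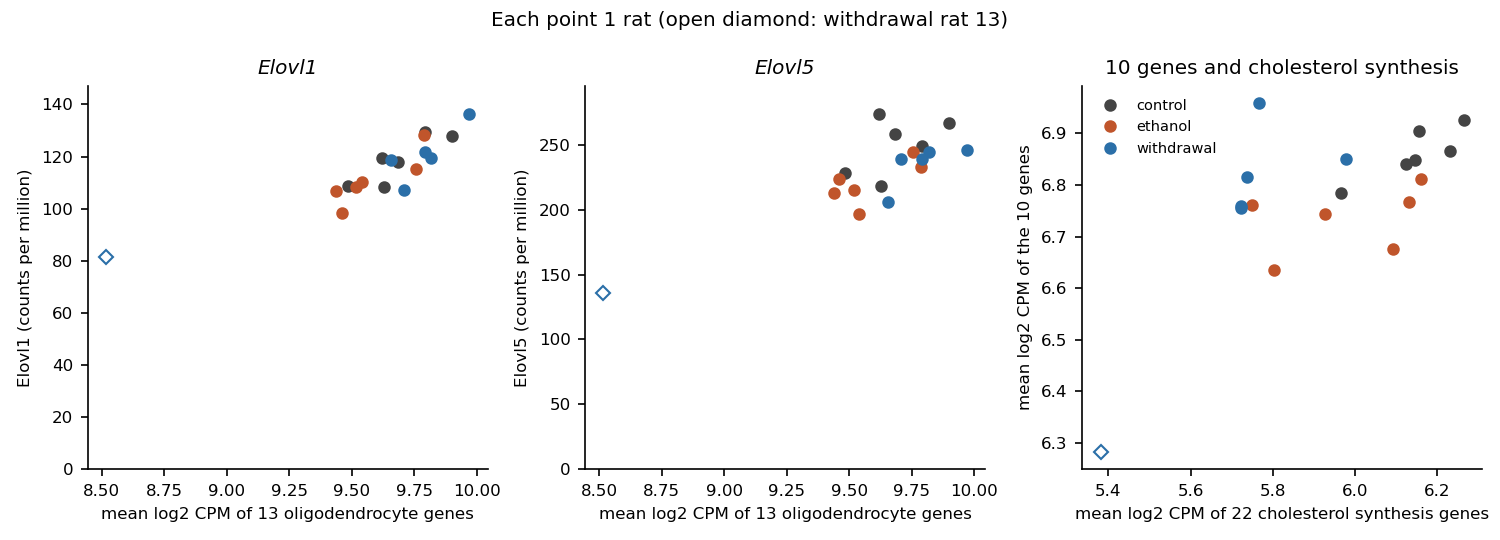
Elovl1 (left) and Elovl5 (middle) in CPM against the mean log2 CPM of 13 oligodendrocyte genes, and the mean log2 CPM of the 10 genes against that of 22 cholesterol synthesis genes (right), 1 point per rat and rat 13 as an open diamond. Elovl1 and Elovl5 are higher in rats with a higher oligodendrocyte mean, and at right withdrawal rats 14 to 18 lie to the left of most controls. In height, withdrawal rats 14 and 15 lie among the controls, rats 16 and 18 just below them and rat 17 just above.

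Other genes of fatty acid synthesis lay on both sides of control. Of 34 tested (of 38 listed, 37 in the files), 19 were lower and 15 higher in chronic ethanol, with a median of -0.008. In withdrawal against control 23 were lower, with a median of -0.069. At an unadjusted edgeR p under 0.05 there were 3 lower and 1 higher in chronic ethanol (5.84% of all genes in either direction) and 4 lower and 2 higher in withdrawal (9.82%), and none passed after adjustment. Idh1, an NADPH source in the cytosol, had the lowest p in chronic ethanol at 78.0 ± 1.96 CPM against 94.5 ± 10.1 in control (SD, n = 6), a log2 change of -0.28 ± 0.06 (edgeR adjusted p = 0.281). In withdrawal it was at 77.5 ± 4.83 CPM, a log2 change of -0.29 ± 0.06 against control (edgeR adjusted p = 0.284).

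Among family members outside the 10 genes, Fads6, of the fatty acid desaturase family, ran from 52.7 to 56.5 CPM in control and from 30.3 in rat 13 to 48.0 in withdrawal. All 6 withdrawal rats lay below every control, which held for 0.38% of all genes tested. The log2 change of Fads6 was -0.34 ± 0.09 (SE, edgeR adjusted p = 0.319), and -0.25 without rat 13 (edgeR adjusted p = 0.109). Elovl2, an elongase of polyunsaturated chains, was at 107 ± 20.2 CPM in withdrawal against 82.4 ± 7.97 in control (SD, n = 6), with 5 of 6 withdrawal rats above every control and a log2 change of 0.38 ± 0.12 (edgeR adjusted p = 0.401). That change was 0.17 without rats 5, 8, 13 and 17. Elovl7 was at 25.6 ± 3.96 CPM in chronic ethanol against 31.7 ± 3.29 in control (log2 change -0.31 ± 0.16, edgeR adjusted p = 0.884), and its difference between withdrawal and chronic ethanol was 0.27 ± 0.16 (edgeR adjusted p = 0.415), or 0.40 without rat 13 (edgeR adjusted p = 0.0965). Elovl4 and Fads3 had log2 changes between -0.17 and 0.06 in the 3 comparisons, and Elovl3 had at most 0.0291 CPM, under the floor.

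Hsd17b12, the ketoreductase step of chain elongation, was at 123 ± 4.60 CPM in chronic ethanol, 135 ± 4.21 in control and 135 ± 5.18 in withdrawal (SD, n = 6). Its log2 change was -0.13 ± 0.04 in chronic ethanol against control (edgeR adjusted p = 0.622) and 0.13 ± 0.04 in withdrawal against chronic ethanol (edgeR adjusted p = 0.166), where 5 of 6 withdrawal rats lay above every ethanol rat.

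Of 20 regulators of the pathway, 10 were lower and 10 higher in chronic ethanol (median -0.004), and 7 were lower in withdrawal against control (median 0.046). Srebf1, which encodes SREBP-1, was at 113 ± 16.6 CPM in control, 138 ± 27.2 in chronic ethanol and 145 ± 12.9 in withdrawal (SD, n = 6), with log2 changes of 0.28 ± 0.12 and 0.36 ± 0.12 against control (edgeR adjusted p = 0.834 and 0.403). Its mean lay above control in both ethanol groups, where that of Fasn lay below. Insig1, which retains the SREBP carrier in the endoplasmic reticulum, was at 208 ± 27.9 CPM in control and 148 ± 34.1 in withdrawal, a log2 change of -0.49 ± 0.14 (edgeR adjusted p = 0.349), and -0.37 without rat 13.

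Cholesterol synthesis is the sister pathway under SREBP control. Of its 22 genes tested, 20 had a negative log2 change in withdrawal against control, beside 46.3% of all genes tested, at a median of -0.424. Without rat 13 all 22 did, at a median of -0.337. In chronic ethanol against control all 22 had a negative log2 change, beside 51.3% of all genes tested, at a median of -0.158. The 10 fatty acid genes had medians of -0.096 and -0.117 in the same comparisons, which share their controls, and the difference between the lists was not tested. Of 22 fatty acid oxidation genes, 8 were lower in each comparison, with medians of 0.030, 0.072 and 0.041. Without rat 13, 15 were lower in withdrawal against control and 18 against chronic ethanol, with medians of -0.048 and -0.026. Cpt1b and Cpt1a, which admit long chains to the mitochondria, had log2 changes of 1.15 and 0.62 in withdrawal against control, which were 0.05 and 0.13 without rat 13.

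Over all genes tested, those most like the mean of Fads1 and Fads2 (each standardised) across 18 rats, with group means removed, were Nid2-ps16 (r = 0.945), Rnd2 (0.936), Rnf157 (0.932), Prxl2b (0.932) and Aldoc (0.921). Without rat 13 these were 0.804, 0.725, 0.721, 0.761 and 0.667. Acly had r = -0.503 and rho = -0.168 with Fasn, and r = -0.24 and rho = -0.059 with Acaca (permutation p adjusted = 0.184 and 0.646, 0.413 and 0.847). The genes most like the mean of Fasn, Acaca and Acly, with which Acly itself had r = 0.159, were Rbms3 (r = 0.873), Clcn5 (0.871), Zfand4 (0.861), Trim44 (0.852) and Lrrc58 (0.845), and 0.761, 0.793, 0.721, 0.683 and 0.865 without rat 13. These are descriptions, picked as the highest of all genes.

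The median coefficient of variation of the 10 genes among rats of a group was 8.17% in control, 9.79% in chronic ethanol and 19.3% in withdrawal, or 7.78% in withdrawal without rat 13. For 4813 genes at a mean of 50 CPM or more it was 7.01%, 7.36%, 13.0% and 5.77% in the same order. Fasn had the smallest value of the set in any group, 2.42% in chronic ethanol, and Scd in chronic ethanol had the largest, 25.4%, which rests on rat 8.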

How the data were processed

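Stranded mRNA libraries of VTA tissue from 18 rats (6 per group) were analysed from the deposited counts. The authors counted fragments per gene with featureCounts 1.5.0 on Rnor_6.0 RefSeq genes, by strand and without pairs that matched several places, per the file headers. The submitters' processing notes name STAR 2.5.2a, R 3.3.3 and limma. Symbols came from a RefSeq table (GRCr8), which named 29322 of 38445 genes. Promoters were read from its companion table.

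Libraries held 29.6 to 45.1 M counts. CPM values were scaled with TMM factors, and RPKM used the exon length in the files. Genes kept by filterByExpr (17637) were tested with edgeR 4.0.16 (quasi-likelihood, two-sided, R 4.3.3) over all 18 libraries with group as the only term. Calls needed an adjusted p (Benjamini-Hochberg) below 0.05. The SE was the log2 change over the root of its F statistic. The method was tested on simulated data. Exact permutation tests of mean log2 CPM (prior count 2) on every gene were an addition made after seeing the data. No library was a copy of another of its group (chi-square over degrees of freedom at least 12.4). Each library is from 1 rat.

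The members and lists were chosen with earlier results of these data known. All 10 members are named. Of the other lists, the rule named called genes, or else the 2 lowest p per comparison, and always the Scd, Elovl and Fads families. Not every gene it takes is described. Alternatives were DESeq2 1.42.0, limma-voom (limma 3.58.1), edgeR with robust fitting, RLE factors, no filter or one of 1 CPM in 6 libraries, 2 groups only, index or oligodendrocyte mean as a term, rats left out, and an adjusted p of 0.10.

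List medians not given elsewhere were 0.113, -0.090 and -0.226 for 11 astrocyte genes in chronic ethanol against control, withdrawal against control and withdrawal against chronic ethanol (the last 2 were -0.038 and -0.09 without rat 13). In withdrawal against chronic ethanol they were -0.282 for cholesterol synthesis (-0.177 without rat 13), -0.054 for other fatty acid synthesis genes (-0.029) and 0.032 for regulators (0.012). Mean log2 CPM in control, chronic ethanol and withdrawal was 7.97, 7.83 and 7.82 for neuron, 6.03, 5.81 and 5.28 for dopamine neuron, 5.66, 5.59 and 5.50 for oligodendrocyte precursor, and 5.41, 5.37 and 5.34 for microglia. It was 5.43, 5.57 and 5.57 for endothelial, 2.82, 2.52 and 2.89 for meningeal fibroblast, -0.09, -0.42 and 0.57 for choroid plexus, 0.34, 0.58 and 2.13 for pineal, -1.08, -1.82 and -0.86 for hindbrain and 5.57, 5.25 and 6.42 for glutamate neuron genes. The pineal mean in withdrawal rests on rat 13 (9.07, others at most 1.21). The hindbrain means in control and chronic ethanol rest on rats 5 and 8 (4.21 and 4.09, other rats of these groups at most -1.15). Glutamate neuron means were highest in rats 5, 8 and 13 (8.04, 7.92 and 8.84, others at most 6.44).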

Additional observations from a re-analysis of the deposited data

Results flagged for a closer look

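In 30 sets of 6 rats (10 genes in 3 groups), 9 held a rat whose gap to its nearest neighbour was a larger part of the range of the group than Dixon's test allows. Chance flags about 1 in 20 groups, and 5 of the 9 came from withdrawal rat 13. That rat had 258 CPM of Fasn (410 to 491 in the other withdrawal rats), 136 CPM of Elovl5 (206 to 246), 109 CPM of Fads1 (189 to 235) and 55.6 CPM of Fads2 (81.7 to 91.5), each the lowest. It had 593 CPM of Acly (357 to 411 in the others), the highest. Ethanol rat 8 had 87.0 CPM of Scd (45.5 to 57.8 in the other ethanol rats) and 229 CPM of Me1 (183 to 199). Control rat 6 had 562 CPM of Fasn (464 to 490 in the other controls), and control rat 5 had 317 CPM of Acly (386 to 426).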

How the results depend on the processing

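No paired analysis was possible because no animal number occurs in more than 1 group. No member passed an adjusted p of 0.05 under any setting fitted across all genes (lowest 0.128). Over all settings the median change of the 10 genes ran from -0.19 to -0.07 in chronic ethanol against control, from -0.16 to -0.03 in withdrawal against control and from -0.04 to 0.08 in withdrawal against chronic ethanol. With the index as a term it was -0.07, -0.06 and -0.03, where the first value sets only ethanol rats 7 and 8 against the controls. Rat 8 held the hindbrain gene Hoxb3, so that value and the signs that turned with the index lean in part on it. The count of called genes, 0 in each comparison, was 38, 42 and 266 with DESeq2 in chronic ethanol against control, withdrawal against control and withdrawal against chronic ethanol, 13, 11 and 664 with the oligodendrocyte mean as a term, and 1, 0 and 83 at an adjusted p of 0.10. In chronic ethanol against control it was 2 with limma-voom, with 2 groups only, with the index as a term, and without rats 5, 8, 13 and 17, which also gave 2 in withdrawal against chronic ethanol. Leaving out 1 rat gave 0 to 4, 0 to 2 and 0 to 24 calls.

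Of 350 member values under the other settings, 23 had the other sign, none past the test, and the cause was not tested. With the index as a term these were Scd (0.23), Elovl1 (0.007) and Fads1 (0.017) in chronic ethanol against control, Acly (-0.25), Scd (0.33) and Elovl1 (0.011) in withdrawal against control, and Scd (0.093) and Elovl6 (-0.10) in withdrawal against chronic ethanol. Within the first index Scd (0.21), Elovl1 (0.007) and Fads1 (0.014) turned in chronic ethanol against control, and within the second Scd (0.074), Elovl1 (-0.012) and Elovl6 (-0.13) in withdrawal against chronic ethanol. Acaca in chronic ethanol was 0.021 with the oligodendrocyte mean as a term. Without rats 5, 8, 13 and 17, Acaca (0.059) and Fads2 (-0.016) turned in chronic ethanol against control, Acly (-0.11) in withdrawal against control, and Fasn (0.038), Acly (-0.002), Scd (0.17), Elovl5 (0.086) and Fads1 (0.050) in withdrawal against chronic ethanol.

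Leaving out 1 rat turned 17 of 540 values. In chronic ethanol Acaca ran from -0.06 to 0.055. In withdrawal against control Acly ran from -0.031 to 0.126, Scd from -0.155 to 0.009, Elovl1 from -0.116 to 0.023 and Fads2 from -0.124 to 0.019. In withdrawal against chronic ethanol Fasn ran from -0.148 to 0.013, Scd from -0.084 to 0.137, Elovl1 from -0.024 to 0.117, Elovl5 from -0.057 to 0.089, Fads1 from -0.149 to 0.045 and Me1 from -0.017 to 0.107. Depth limits Elovl6 most, with 67 to 163 counts a library. Ratios of Scd2 to Scd in control were 115 per length (RPKM) and 122 without length (CPM).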
